A study of Mus musculus with 6 samples.

Results

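The nuclear-encoded subunits of oxidative phosphorylation are described here in e15.5 pancreases of *Jarid2* Δpanc and *Jarid2* WT mouse embryos. A gene belonged to the group if its annotated symbol began with Nduf followed by a, b, c, s or v and a number (complex I), was *Sdha*, *Sdhb*, *Sdhc* or *Sdhd* (complex II), or began with Uqcr (complex III), Cox4 to Cox8 (complex IV) or Atp5 (complex V). Assembly factors were left out, and no measured value entered this rule, though earlier results of these data were known when it was chosen. This gave 81 of 18194 genes, of which 33 belonged to complex I, 4 to complex II, 8 to complex III, 19 to complex IV and 17 to complex V. Whole pancreases of 3 *Jarid2* Δpanc and 3 *Jarid2* WT embryos were hybridized to Affymetrix mouse arrays. In *Jarid2* Δpanc embryos a Pdx1-Cre transgene acted on floxed *Jarid2* alleles, and the labels give the strain of both groups as C57BL/6. Pdx1-Cre is active in the pancreatic epithelium, so that mesenchyme, vessels, blood cells and nerves of the same organ kept *Jarid2*, and recombination in the epithelium can be mosaic. The *Jarid2* WT embryos were control littermates without the deletion. Jarid2 is an accessory protein of the Polycomb repressive complex PRC2.

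Oxidative phosphorylation takes place at the inner mitochondrial membrane. Complex I (NADH dehydrogenase) and complex II (succinate dehydrogenase) pass electrons to ubiquinone, complex III passes them on to cytochrome c, and complex IV (cytochrome c oxidase) hands them to oxygen. Complexes I, III and IV pump protons, and complex V (ATP synthase) uses the proton gradient to make ATP. Most subunits are encoded in the nucleus and imported, while a few catalytic ones are encoded by mitochondrial DNA. Acinar cells need ATP for the synthesis and secretion of digestive enzymes, and in β-cells the ATP made by mitochondria couples glucose to insulin secretion.

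The signals are array intensities on a linear scale. They were floored at 16 before log2 was taken, and the brightest probe set stood for each gene, so that levels are compared between samples and not between genes. Median signals per array were 35 to 38. *Jarid2* itself had signals of 392, 398 and 355 in *Jarid2* Δpanc samples and 335, 301 and 415 in *Jarid2* WT samples (log2 fold change 0.13, standard error 0.14). Its further probe sets had log2 fold changes of 0.06 and 0.01, and it is not known whether any of its probes lie in the deleted part. *Xist*, which silences an X chromosome, had 4662, 4905 and 4197 in *Jarid2* Δpanc samples and 24, 12 and 4390 in *Jarid2* WT samples, so that only *Jarid2* WT replicate 3 resembled the *Jarid2* Δpanc samples in this respect. *Eif2s3y*, a gene of the Y chromosome, had 7, 5 and 13 in *Jarid2* Δpanc samples and 560, 506 and 9 in *Jarid2* WT samples. By both genes, sex was not balanced between the groups, and its part in the difference of any member was not tested. *Jarid2* WT replicate 3 also stood apart by its skeletal muscle markers, whose summed signal over 8 of 8 genes was 228 to 305 in *Jarid2* Δpanc samples and 204, 228 and 10787 in *Jarid2* WT samples. Pancreatic markers were present in all samples. Acinar markers (7 of 7 genes) summed to 50769 to 61907 in *Jarid2* Δpanc and 64820 to 74281 in *Jarid2* WT samples, and endocrine markers (6 of 6 genes) to 9907 to 11509 in *Jarid2* Δpanc and 17422 to 20373 in *Jarid2* WT samples.

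Most subunits had slightly lower mean signals in *Jarid2* Δpanc pancreases. The median log2 fold change of the 81 members was -0.11, which is 92.8% of the *Jarid2* WT level, against 0.00 over all genes. A negative log2 fold change was found in 71 members (87.7%), against 43.3% of all genes. All genes here include 1594 that lay at the floor on all arrays and have no fold change. In 27 members (33.3%) the highest *Jarid2* Δpanc value was under the lowest *Jarid2* WT value, against 5.66% of all genes, and these members are called separated below. The reverse held for 1 member, *Cox6b2*, which is 1.23% of the members, against 5.71% of all genes. No member and no other gene passed an adjusted p of 0.05 in limma (0.0% of all genes). At an unadjusted p under 0.05 in limma, 24 members were lower and 1 was higher, where 4.44% of all genes were lower and 4.36% higher.

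These shares have to be read beside those of other abundant transcripts, since most members were bright. Of 1247 genes with a mean signal of at least 1000, 65.2% had a negative log2 fold change, 19.2% were lower and 3.69% higher in every *Jarid2* Δpanc sample, and the median was -0.05. Among the 65 members of that brightness, 62 (95.4%) were negative, 25 (38.5%) were lower in every *Jarid2* Δpanc sample and the median was -0.12. Markers of acinar and endocrine cells moved with the members: 4 of 7 acinar and 4 of 6 endocrine markers were lower in every *Jarid2* Δpanc sample. The 4 mesenchyme, 3 endothelium and 4 macrophage markers measured all had positive log2 fold changes, with medians of 0.13, 0.15 and 0.32. Among them only *Adgre1*, a macrophage marker, was higher in every *Jarid2* Δpanc sample. Positive values were also found in 2 of 3 progenitor and duct markers (median 0.08) and 3 of 4 liver markers (median 0.14). These 3 liver markers varied widely within both groups, with the highest signals in *Jarid2* Δpanc replicate 3 and *Jarid2* WT replicate 2. The remaining liver marker, *Ttr*, was lower in every *Jarid2* Δpanc sample (log2 fold change -0.34). All 4 red blood cell markers measured were negative (median -0.18). The nuclear noncoding RNA *Malat1* had 2756, 2801 and 3486 in *Jarid2* Δpanc samples and 1503, 1221 and 1146 in *Jarid2* WT samples (log2 fold change 1.23, standard error 0.15, adjusted p = 0.218 in limma). In whole organs, fewer cells of a type and less RNA per cell cannot be told apart, and the part of cell composition or RNA quality in the difference was not tested. With quantile normalization in place of the deposited scaling, 13 of the 81 members were lower in every *Jarid2* Δpanc sample against 5.70% of all genes and 12.1% of the bright genes, and the median of the members was -0.05 while that of the bright genes was 0.01.

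**Figure D1:**
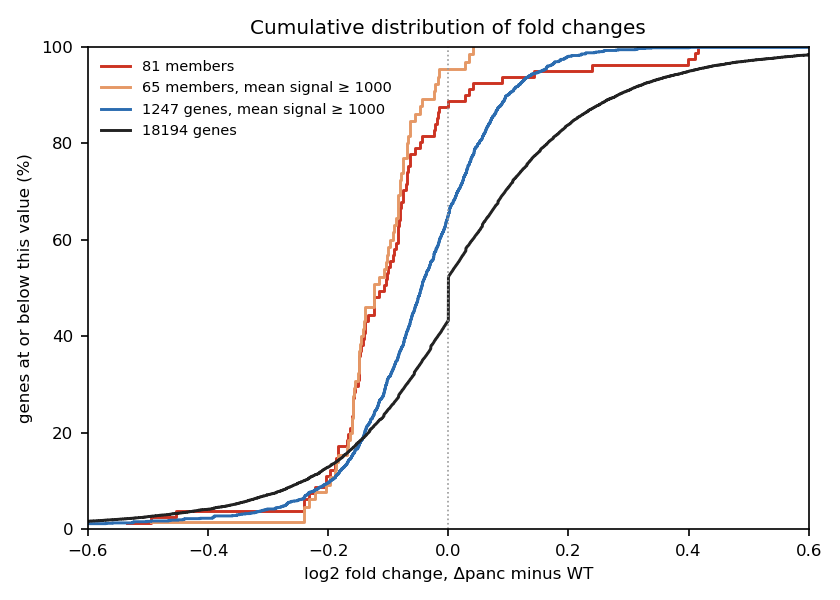
Cumulative share of genes in percent (y axis) at or below each log2 fold change, *Jarid2* Δpanc minus *Jarid2* WT (x axis, cropped at ±0.6), for the 81 members, the 65 bright members, the 1247 bright genes and all 18194 genes. The curves of the members lie left of the others around their medians of -0.11 and -0.12, and the step at 0 in the curve of all genes comes largely from genes at the floor on all arrays.

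The samples differed within the groups too, more among the *Jarid2* Δpanc than among the *Jarid2* WT samples. The median deviation of the 81 members from their *Jarid2* WT mean was -0.13, -0.07 and -0.15 in *Jarid2* Δpanc replicates 1, 2 and 3, and 0.01, 0.02 and -0.03 in *Jarid2* WT replicates 1, 2 and 3, on the log2 scale. The same medians over the 1247 bright genes were -0.07, -0.01 and -0.05 in *Jarid2* Δpanc samples and 0.01, 0.01 and -0.02 in *Jarid2* WT samples. By the first measure no *Jarid2* Δpanc sample reached the lowest *Jarid2* WT sample, and *Jarid2* Δpanc replicate 2 was nearest to the controls by the members. Of the 80 members not at the floor on all arrays, *Jarid2* Δpanc replicate 3 was the lowest sample in 44, replicate 1 in 19 and replicate 2 in 5. *Jarid2* WT replicate 2 was the highest sample in 29, replicate 1 in 22 and replicate 3 in 13. Without *Jarid2* Δpanc replicate 2, 44 members were lower in every remaining *Jarid2* Δpanc sample, where the shares were 9.52% of all genes and 33.5% of the bright genes. Without *Jarid2* WT replicate 3, 41 were, where the shares were 10.5% of all genes and 30.6% of the bright genes. Fewer samples separate more easily, so that such counts can only stay the same or grow.

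**Figure D2:**
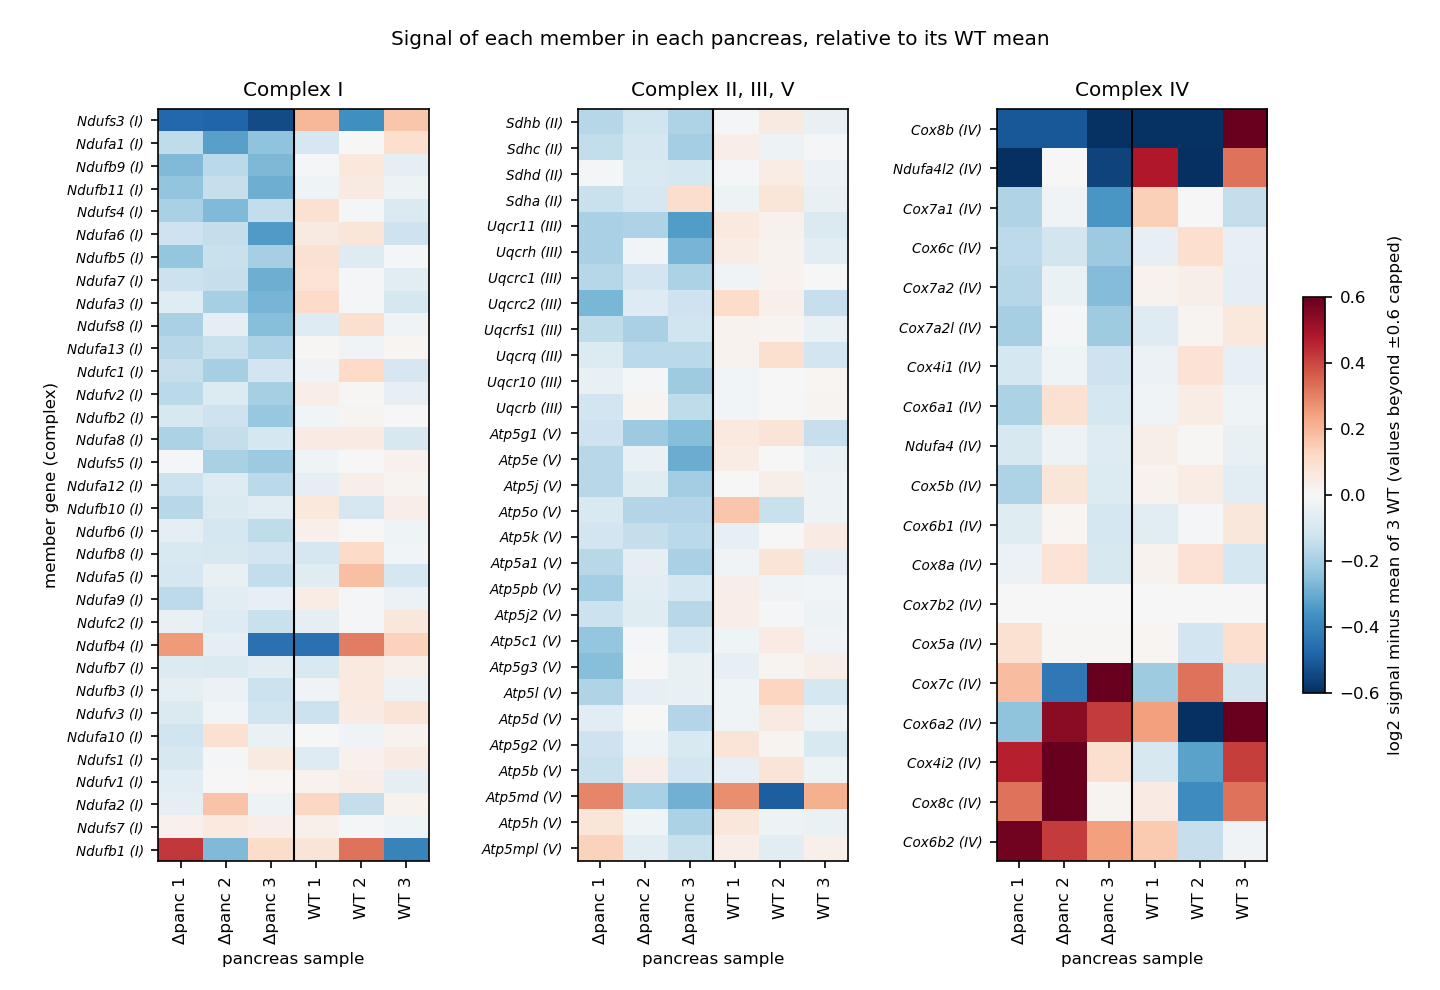
Log2 signal of each of the 81 members minus its mean over the 3 *Jarid2* WT samples (colour, capped at ±0.6), with 1 row a gene ordered by complex and fold change and 1 column a pancreas, *Jarid2* Δpanc left of the black line and *Jarid2* WT right of it. Blue cells prevail in the *Jarid2* Δpanc columns of complexes I, II, III and V, and the rows of strong colour in the complex IV panel are dim isoforms.

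With the main fit, the standard errors were small for the brighter members. For the 70 members with a mean signal of at least 500, the median standard error of the log2 fold change was 0.06, 24 had a 95% interval (limma, unadjusted) that lay below 0, and 68 had one that stayed within ±0.5. The 2 exceptions were *Ndufs3* and *Atp5md*. The other 11 members, *Ndufb1*, *Ndufb4*, *Cox4i2*, *Cox6a2*, *Cox6b2*, *Cox7a1*, *Cox7b2*, *Cox7c*, *Cox8b*, *Cox8c* and *Ndufa4l2*, were dim, and 4 of them had negative fold changes. The intervals of the 70 brighter members depend on how the dim genes enter the fit. With a floor of 1, or without dim genes, far fewer members were lower at an unadjusted p under 0.05 in limma, as given in the section on processing.

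**Figure D3:**
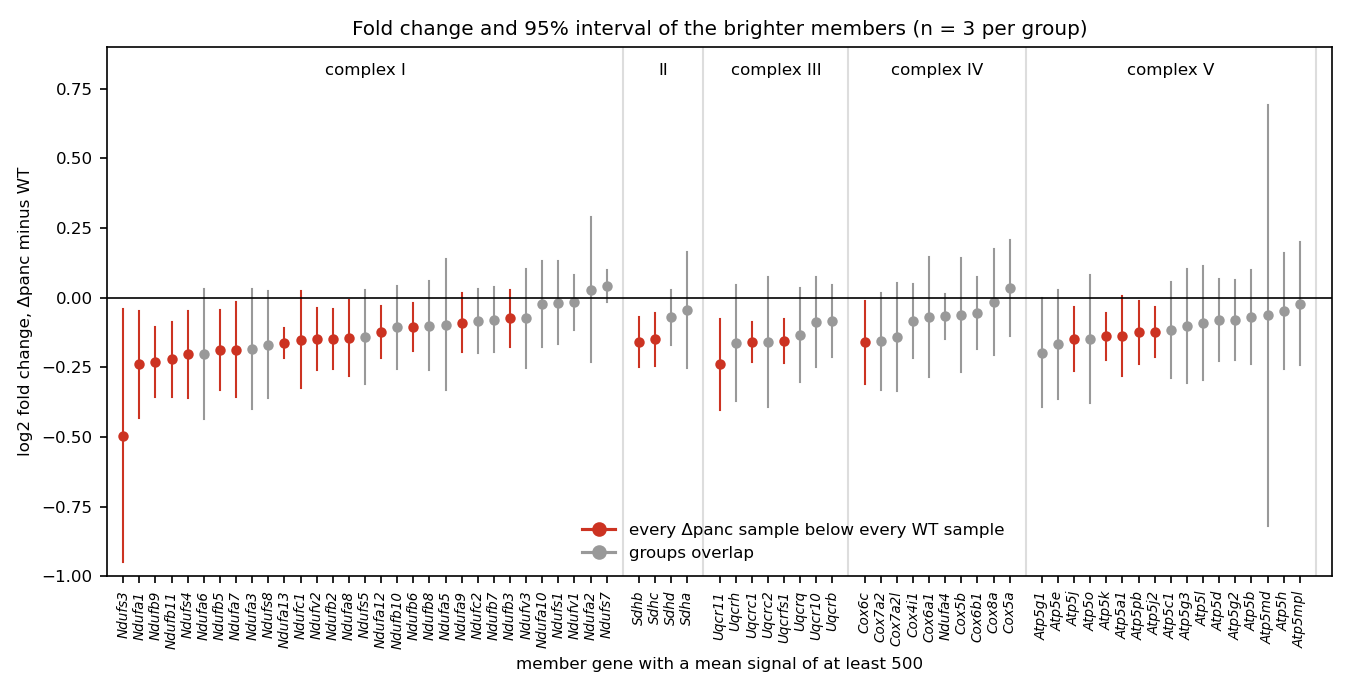
Log2 fold change, *Jarid2* Δpanc minus *Jarid2* WT (y axis), of the 70 members with a mean signal of at least 500, grouped by complex along the x axis, with points for the estimate and lines for the 95% interval of limma (3 samples per group). Red marks the 27 genes whose groups did not overlap, with *Jarid2* Δpanc lower, and 67 of the 70 estimates are negative.

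Complex I, the entry point for electrons from NADH, held 16 of the 27 separated members. Of its 33 genes, 30 had a negative log2 fold change, and the median was -0.12. The 6 core subunits, which carry the flavin and the iron-sulfur clusters or line the way to ubiquinone, had a median of -0.08 and 2 of them were lower in every *Jarid2* Δpanc sample. The 27 accessory subunits, which surround and stabilize the core, had a median of -0.12 and 14 of them were lower in every *Jarid2* Δpanc sample. *Ndufs3*, a core subunit of the peripheral arm, had the largest difference of the brighter members: its signals were 1485, 1477 and 1420 in *Jarid2* Δpanc samples and 2364, 1597 and 2310 in *Jarid2* WT samples. The groups did not overlap, but the gap came from *Jarid2* WT replicates 1 and 3, and *Jarid2* WT replicate 2 lay close to the *Jarid2* Δpanc samples. Its log2 fold change was -0.50 (standard error 0.17, 95% interval -0.95 to -0.04, adjusted p = 0.532 in limma), and -0.40 to -0.68 when 1 sample was left out. *Ndufs3* has a single probe set on the array.

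*Ndufa13*, an accessory subunit also known as GRIM-19, had the lowest adjusted p of all members. Its signals were 2404, 2456 and 2370 in *Jarid2* Δpanc samples and 2711, 2658 and 2715 in *Jarid2* WT samples. The difference was small and the samples of each group nearly alike (log2 fold change -0.16, standard error 0.02, adjusted p = 0.218 in limma). *Ndufb9* had 2276, 2447 and 2264 in *Jarid2* Δpanc samples and 2715, 2855 and 2634 in *Jarid2* WT samples, a log2 fold change of -0.23 (standard error 0.05). *Ndufs4*, an accessory subunit whose loss causes Leigh syndrome in humans, had 651, 620 and 672 in *Jarid2* Δpanc samples and 795, 742 and 702 in *Jarid2* WT samples, a log2 fold change of -0.20 (standard error 0.06). In each of these genes the groups stood apart, and with quantile normalization *Ndufa13* had a log2 fold change of -0.08, *Ndufb9* -0.16 and *Ndufs4* -0.18. The accessory subunits *Ndufb5*, *Ndufa7*, *Ndufc1*, *Ndufb2*, *Ndufa8*, *Ndufa12*, *Ndufb6*, *Ndufa9* and *Ndufb3* were separated as well, with log2 fold changes between -0.19 for *Ndufb5* and -0.07 for *Ndufb3*. Of these, *Ndufc1*, *Ndufa9* and *Ndufb3* had an unadjusted p above 0.05 in limma.

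*Ndufa1* and *Ndufb11*, accessory subunits of the membrane arm, are encoded on the X chromosome, and *Xist* signals differed between the groups as given above. *Ndufa1* had 2324, 2063 and 2184 in *Jarid2* Δpanc samples and 2407, 2584 and 2773 in *Jarid2* WT samples (log2 fold change -0.24, standard error 0.07). *Ndufb11* had 3536, 3786 and 3396 in *Jarid2* Δpanc samples and 4094, 4318 and 4078 in *Jarid2* WT samples (log2 fold change -0.22, standard error 0.05). Both were separated, and with quantile normalization their log2 fold changes were -0.16 and -0.14. The part of X-chromosome number in these differences was not tested.

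The groups overlapped in the other members of complex I. Some of them had log2 fold changes as low as those of separated genes, with a wider spread, among them the accessory subunits *Ndufa6* (-0.20, standard error 0.09), *Ndufa3* (-0.18, standard error 0.08) and *Ndufs5* (-0.14, standard error 0.06) and the core subunit *Ndufs8* (-0.17, standard error 0.07). Others were near the control level. The core subunit *Ndufs7*, which carries the last iron-sulfur cluster before ubiquinone, had 1361, 1391 and 1376 in *Jarid2* Δpanc samples and 1366, 1332 and 1313 in *Jarid2* WT samples, with overlapping groups and a log2 fold change of 0.04 (95% interval -0.01 to 0.10). *Ndufs1* and the flavin-binding *Ndufv1* had log2 fold changes of -0.02 each (95% intervals -0.17 to 0.13 and -0.12 to 0.08). The accessory subunit *Ndufc2* had 3634, 3550 and 3412 in *Jarid2* Δpanc samples and 3604, 3709 and 3922 in *Jarid2* WT samples, which overlap. For the core subunit *Ndufv2* the result depended on the probe set. The brightest had 2350, 2483 and 2289 in *Jarid2* Δpanc samples and 2706, 2641 and 2546 in *Jarid2* WT samples (log2 fold change -0.15). A further one had 1645, 1951 and 1820 in *Jarid2* Δpanc samples and 1359, 1150 and 1373 in *Jarid2* WT samples (log2 fold change 0.48), and a last one had -0.03. The direction for *Ndufv2* is therefore not settled.

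Complex II, which is also the succinate dehydrogenase of the citrate cycle, was lower in 2 of its 4 subunits. *Sdhb*, the iron-sulfur subunit, had 1877, 1941 and 1855 in *Jarid2* Δpanc samples and 2094, 2193 and 2049 in *Jarid2* WT samples (log2 fold change -0.16, standard error 0.03). *Sdhc*, a membrane anchor, had 551, 569 and 530 in *Jarid2* Δpanc samples and 627, 596 and 606 in *Jarid2* WT samples (log2 fold change -0.15, standard error 0.04). Neither gene had overlapping groups, and with quantile normalization *Sdhb* had -0.10 and *Sdhc* -0.14. The flavoprotein *Sdha* had 1271, 1301 and 1503 in *Jarid2* Δpanc samples and 1369, 1469 and 1354 in *Jarid2* WT samples, and its log2 fold change of -0.04 lay at 0.00 with quantile normalization. *Sdhd*, the other anchor, overlapped between groups with a log2 fold change of -0.07.

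In complex III all 8 subunits had negative log2 fold changes, with a median of -0.16, and 3 were separated. *Uqcrfs1*, the Rieske iron-sulfur protein that takes electrons from ubiquinol, had 1506, 1462 and 1543 in *Jarid2* Δpanc samples and 1702, 1693 and 1630 in *Jarid2* WT samples (log2 fold change -0.16, standard error 0.03). *Uqcrc1*, a core protein, had 2250, 2346 and 2224 in *Jarid2* Δpanc samples and 2502, 2574 and 2536 in *Jarid2* WT samples (log2 fold change -0.16, standard error 0.03, adjusted p = 0.266 in limma). *Uqcr11*, a small accessory subunit, had 1570, 1579 and 1425 in *Jarid2* Δpanc samples and 1872, 1832 and 1695 in *Jarid2* WT samples (log2 fold change -0.24, standard error 0.06). These genes were lower in each *Jarid2* Δpanc sample, whereas the groups overlapped for *Uqcrc2* and *Uqcrb*. The core protein *Uqcrc2* had 3246, 3718 and 3604 in *Jarid2* Δpanc samples and 4232, 4009 and 3565 in *Jarid2* WT samples. *Uqcrb*, which lies near the ubiquinone site, had 8977, 9836 and 8765 in *Jarid2* Δpanc samples and 9611, 9745 and 9834 in *Jarid2* WT samples. The log2 fold change of *Uqcrb* was -0.08, and 0.03 with quantile normalization, which gave -0.08 for *Uqcrc1*, -0.10 for *Uqcrfs1*, -0.19 for *Uqcr11* and -0.06 for *Uqcrc2*.

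By the brightest probe sets, complex IV held the fewest separated members for its size. Only 1 of its 19 genes was lower in every *Jarid2* Δpanc sample and 1 was higher, and the median of -0.06 turned to 0.01 with quantile normalization. Whether complex IV differs from the other complexes was not tested. The separated subunit was *Cox6c*, with 3678, 3798 and 3519 in *Jarid2* Δpanc samples and 3954, 4391 and 3957 in *Jarid2* WT samples (log2 fold change -0.16, standard error 0.06, and -0.08 with quantile normalization). The common isoforms, 10 genes in all with the dim *Cox7c* among them, had a median of -0.07. *Cox4i1*, the regulatory subunit that binds ATP, had 4100, 4337 and 4048 in *Jarid2* Δpanc samples and 4303, 4675 and 4258 in *Jarid2* WT samples. *Cox6a1* had 8961, 10904 and 9522 in *Jarid2* Δpanc samples and 10083, 10568 and 10066 in *Jarid2* WT samples. *Cox7a2* had 5808, 6351 and 5466 in *Jarid2* Δpanc samples and 6627, 6710 and 6285 in *Jarid2* WT samples. In all of these the groups overlapped, with *Jarid2* Δpanc replicate 2 the highest *Jarid2* Δpanc sample. *Cox5a*, *Cox6b1* and *Cox8a* had log2 fold changes of 0.04, -0.05 and -0.02, and those of *Cox6b1* and *Cox8a* were 0.06 and 0.05 with quantile normalization. A further probe set each of *Cox5a*, *Cox6a1*, *Cox6b1* and *Cox7a2l*, with a mean signal of at least 500, was lower in every *Jarid2* Δpanc sample. Their log2 fold changes were -0.15, -0.19, -0.18 and -0.16. Others of that brightness, of *Cox5a*, *Cox5b*, *Cox7a2*, *Cox7a2l* and *Cox8a*, overlapped between groups. The count for complex IV therefore depends on the probe set. *Ndufa4*, once assigned to complex I and now counted with complex IV, had 2509, 2629 and 2545 in *Jarid2* Δpanc samples and 2747, 2699 and 2604 in *Jarid2* WT samples.

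Several subunits of complex IV have second isoforms that are largely limited to heart and muscle, lung, testis or low oxygen, and 8 such genes were measured. Their signals were low. *Cox6b2*, the testis isoform of the subunit that bridges the dimer, had 212, 190 and 168 in *Jarid2* Δpanc samples and 158, 129 and 140 in *Jarid2* WT samples (log2 fold change 0.42, standard error 0.12, adjusted p = 0.443 in limma). Every *Jarid2* Δpanc sample was above every *Jarid2* WT sample, the only such case among the members. The heart and muscle isoform *Cox6a2* had 57, 98 and 90 in *Jarid2* Δpanc samples and 80, 17 and 225 in *Jarid2* WT samples. The muscle isoform *Cox8b* had 17, 17 and 9 in *Jarid2* Δpanc samples and 4, 3 and 55 in *Jarid2* WT samples. Both were highest in *Jarid2* WT replicate 3, the sample with the skeletal muscle markers, and their log2 fold changes moved with it: *Cox8b* had -0.54 with all samples and 0.06 without that sample, and *Cox6a2* 0.24 and 1.11. *Cox7a1*, also a heart and muscle isoform, was not highest there, with 196, 219 and 174 in *Jarid2* Δpanc samples and 245, 222 and 201 in *Jarid2* WT samples. The lung isoform *Cox4i2* (31, 35 and 24 in *Jarid2* Δpanc samples, 21, 18 and 30 in *Jarid2* WT samples), the testis isoform *Cox8c* and the hypoxia-induced *Ndufa4l2* overlapped between groups. *Cox7b2* lay under the floor of 16 on every array and has no fold change.

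**Figure D4:**
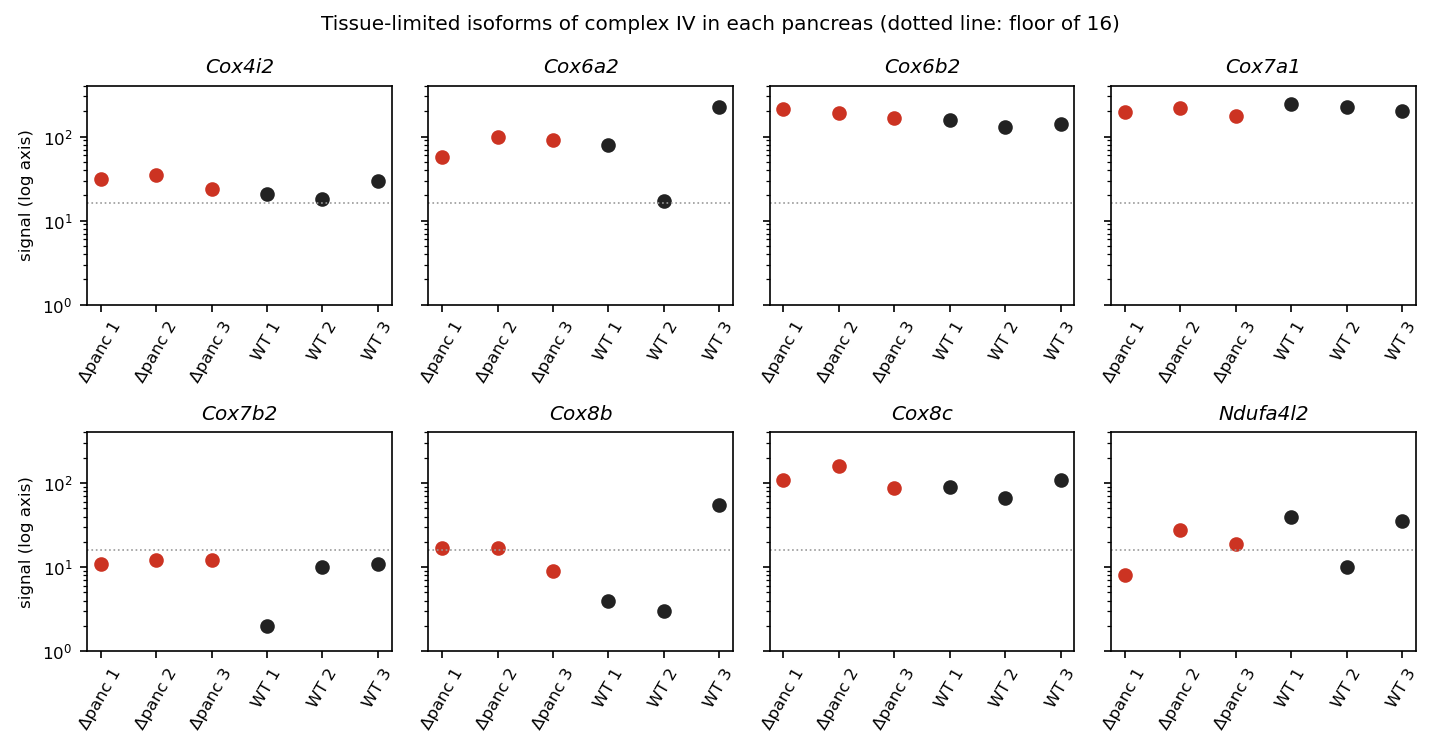
Signal (log axis) of the 8 tissue-limited isoforms of complex IV in each pancreas, with *Jarid2* Δpanc samples in red on the left and *Jarid2* WT samples in black on the right of each panel, and the floor of 16 as a dotted line. *Cox6b2* lies between 168 and 212 in *Jarid2* Δpanc samples and between 129 and 158 in *Jarid2* WT samples, and *Cox6a2* and *Cox8b* are highest in *Jarid2* WT replicate 3.

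In complex V all 17 members had negative log2 fold changes, with a median of -0.12, and 5 were separated. In the catalytic F1 head, *Atp5a1* (the α subunit) had 4727, 5095 and 4628 in *Jarid2* Δpanc samples and 5216, 5582 and 5111 in *Jarid2* WT samples, separated by a narrow gap (log2 fold change -0.14, standard error 0.05, and -0.03 with quantile normalization). *Atp5b*, the β subunit that makes ATP, had 6377, 7192 and 6449 in *Jarid2* Δpanc samples and 6759, 7381 and 6847 in *Jarid2* WT samples. Its groups overlapped, and its log2 fold change was -0.07, and 0.03 with quantile normalization. In the peripheral stalk, which holds the head still, *Atp5j* had 2945, 3145 and 2860 in *Jarid2* Δpanc samples and 3296, 3383 and 3237 in *Jarid2* WT samples (log2 fold change -0.15, standard error 0.04). *Atp5pb* (subunit b) had 5333, 5859 and 5698 in *Jarid2* Δpanc samples and 6286, 6044 and 6071 in *Jarid2* WT samples (log2 fold change -0.12, standard error 0.04). Both stalk genes were separated with the deposited scaling, and with quantile normalization their log2 fold changes were -0.08 for *Atp5j* and -0.03 for *Atp5pb*.

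The small membrane subunits *Atp5k* (subunit e) and *Atp5j2* (subunit f) were separated too. *Atp5k* had 2663, 2613 and 2579 in *Jarid2* Δpanc samples and 2787, 2881 and 2985 in *Jarid2* WT samples (log2 fold change -0.14, standard error 0.03). *Atp5j2* had 4667, 4843 and 4540 in *Jarid2* Δpanc samples and 5247, 5055 and 4998 in *Jarid2* WT samples (log2 fold change -0.12, standard error 0.03). With quantile normalization *Atp5k* had -0.07 and *Atp5j2* -0.03. The rotating c ring is encoded by 3 genes for the same mature protein, and none of them was separated. *Atp5g1* had 1831, 1716 and 1671 in *Jarid2* Δpanc samples and 2077, 2102 and 1813 in *Jarid2* WT samples (log2 fold change -0.20, standard error 0.07, unadjusted p = 0.049 and adjusted p = 0.567 in limma). *Atp5g3* had 5903, 7042 and 6832 in *Jarid2* Δpanc samples and 6813, 7129 and 7226 in *Jarid2* WT samples. *Atp5md*, a small subunit of the membrane part, varied within both groups, with 1374, 980 and 919 in *Jarid2* Δpanc samples and 1363, 796 and 1302 in *Jarid2* WT samples.

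The promoters of these genes are shown because the nuclear factors NRF1, GABP (an ETS factor) and YY1 are known to bind promoters of respiratory genes. RefSeq promoters (GRCm38.p6, 250 bases before to 50 after the start) were given for 66 of the 81 members and for 27025 genes. The letters GCGCANGCGC, the core of the NRF1 motif, were found on either strand in 15 members (22.7%), against 5.19% of all genes. The ETS letters ACCGGAAG were found in 7 members (10.6%), against 2.6% of all genes, and the YY1 letters AAGATGGC in 9 (13.6%), against 3.19%. The SP1 letters GGGGCGGGG (11 members, 16.7%, against 12.91%) and the CCAAT box (28 members, 42.4%, against 41.06%) were found at shares nearer to those of all genes. Of the members with the letters, 3 of 15 for NRF1, 3 of 7 for ETS, 6 of 9 for YY1, 4 of 11 for SP1 and 6 of 28 for the CCAAT box were lower in every *Jarid2* Δpanc sample, where 33.3% of all members were. The following stretches end before the start of the gene, lie on the minus strand, run 5′ to 3′ and carry the letters, on either strand, in capitals. They show these letters in the separated genes *Atp5k*, *Ndufa8*, *Ndufb6* and *Atp5j* and in *Sdhd*, whose groups overlapped.
Atp5k (NRF1 letters, chr5:108434400-108434489): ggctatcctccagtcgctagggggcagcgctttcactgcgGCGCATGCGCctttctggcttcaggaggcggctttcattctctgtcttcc
Ndufa8 (NRF1 letters, chr2:36049339-36049408): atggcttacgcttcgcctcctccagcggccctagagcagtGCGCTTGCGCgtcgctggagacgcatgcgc
Ndufb6 (ETS letters, chr4:40279606-40279671): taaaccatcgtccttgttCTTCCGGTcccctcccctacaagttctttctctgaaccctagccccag
Atp5j (YY1 letters, chr16:84835017-84835104): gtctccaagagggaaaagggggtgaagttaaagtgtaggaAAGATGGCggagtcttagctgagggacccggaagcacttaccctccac
Sdhd (NRF1 letters, chr9:50603879-50603968): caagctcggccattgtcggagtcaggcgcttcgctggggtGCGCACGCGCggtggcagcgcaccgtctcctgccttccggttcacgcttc

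A letter match is a description of the window and says nothing about binding. In *Atp5k* the match starts 50 bases before the gene, and in *Atp5j* 88 bases before it. *Ndufa8* had 1377, 1423 and 1459 in *Jarid2* Δpanc samples and 1623, 1624 and 1469 in *Jarid2* WT samples. *Ndufb6* had 2316, 2233 and 2163 in *Jarid2* Δpanc samples and 2452, 2399 and 2362 in *Jarid2* WT samples. *Sdhd*, which carries both NRF1 and ETS letters, had 997, 943 and 934 in *Jarid2* Δpanc samples and 999, 1038 and 981 in *Jarid2* WT samples.

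Further probe sets of the same genes gave similar values. Of 164 probe sets that match the members, 83 do not stand for their gene, and 50 of these, from 35 genes, had a mean signal of at least 500. Of the 50, 45 had a negative log2 fold change, 23 were lower in every *Jarid2* Δpanc sample, and the median was -0.13. The 1 that was higher in every *Jarid2* Δpanc sample was that of *Ndufv2*. Of the 20 whose gene was separated by its brightest probe set, 14 were separated too, and 9 genes had a separated further probe set though the brightest overlapped. Probe sets of a gene share its RNA and are no replicates. The shares over all further probe sets of that brightness were not taken. Of the 1247 genes with a mean signal of at least 1000, by their brightest probe sets, 65.2% were negative and 19.2% lower in every *Jarid2* Δpanc sample.

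Genes that work beside the subunits were described from lists chosen by function. Of 18 electron carriers and partners, 4 were lower and 2 higher in every *Jarid2* Δpanc sample, with a median log2 fold change of -0.08. *Cycs*, cytochrome c, had 5104, 4684 and 4779 in *Jarid2* Δpanc samples and 5807, 5406 and 5470 in *Jarid2* WT samples (log2 fold change -0.20, standard error 0.05), and *Cyc1*, the cytochrome of complex III, was separated as well. On the other side stood *Atpif1*, the inhibitor of ATP synthase, with 2495, 2489 and 2408 in *Jarid2* Δpanc samples and 2344, 2337 and 2261 in *Jarid2* WT samples (log2 fold change 0.09, standard error 0.02), and the ADP/ATP carrier *Slc25a4* (log2 fold change 0.06). Of 19 measured genes of the citrate cycle and pyruvate entry, 9 (47.4%) were lower in every *Jarid2* Δpanc sample and none was higher, with a median of -0.12. Of the 10 with a mean signal of at least 1000, 4 were lower. The 9 included the pyruvate carrier *Mpc1*, with 502, 468 and 466 in *Jarid2* Δpanc samples and 569, 605 and 598 in *Jarid2* WT samples (log2 fold change -0.30). The rest of the 9 were *Suclg1*, *Fh1*, *Idh2*, *Idh3a*, *Mdh2*, *Dlat*, *Dlst* and *Pdha1*. None of these genes passed an adjusted p of 0.05 in limma.

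Other groups had smaller shares of separated genes over all their members, but they hold fewer bright genes, and no share was tested against that of the subunits. Over all genes 5.66% were lower and 5.71% higher in every *Jarid2* Δpanc sample, and over the bright genes 19.2% and 3.69%. Of 45 assembly factors, 6 (13.3%) were lower and 2 higher in every *Jarid2* Δpanc sample (median -0.07), and of 76 mitochondrial ribosomal proteins, 15 (19.7%) were lower and none higher (median -0.07). Of 49 cytosolic ribosomal proteins, 37 of them with a mean signal of at least 1000, 3 (6.12%) were lower (median -0.09), and of 20 glycolysis genes 1 was lower (median -0.08). A negative log2 fold change was as frequent in the cytosolic ribosomal proteins (43 of 49, 87.8%) as in the subunits (71 of 81, 87.7%). All 37 bright cytosolic ribosomal proteins were negative, with a median of -0.10, beside -0.12 for the 65 bright subunits. Of 21 genes of mitochondrial protein import, 3 were lower and 1 higher (median -0.06). Among genes with a mean signal of at least 1000, 2 of 3 assembly factors, 3 of 7 import genes, 3 of 11 mitochondrial and 3 of 37 cytosolic ribosomal proteins and 1 of 7 glycolysis genes were lower, beside 25 of the 65 subunits. Of 22 regulators of mitochondrial biogenesis, none was lower and 2 were higher in every *Jarid2* Δpanc sample, with a median of 0.09. *Gabpa*, a subunit of GABP, had 942, 973 and 923 in *Jarid2* Δpanc samples and 829, 863 and 856 in *Jarid2* WT samples (log2 fold change 0.16, standard error 0.03, adjusted p = 0.286 in limma). The mitochondrial helicase *Twnk* had 221, 251 and 226 in *Jarid2* Δpanc samples and 219, 178 and 195 in *Jarid2* WT samples. *Tfam*, which packs and transcribes mitochondrial DNA, had 697, 667 and 708 in *Jarid2* Δpanc samples and 796, 664 and 722 in *Jarid2* WT samples, which overlap, and *Nrf1* (96, 94 and 98 in *Jarid2* Δpanc samples, 120, 87 and 73 in *Jarid2* WT samples) and *Ppargc1a* were dim and overlapped.

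**Figure D5:**
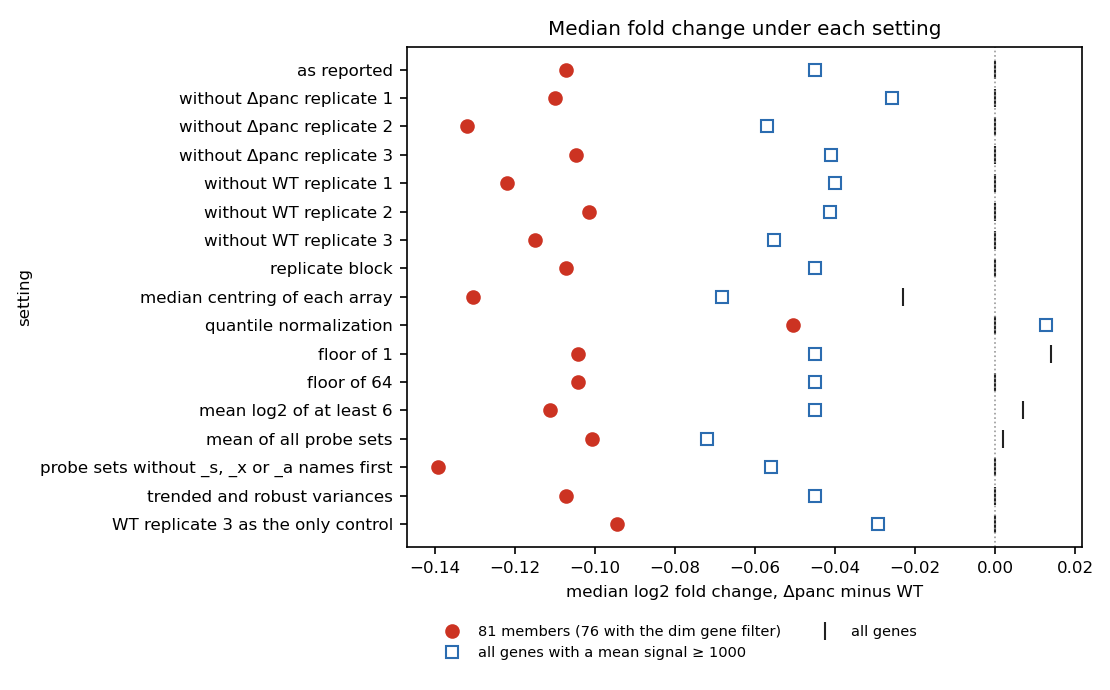
Median log2 fold change, *Jarid2* Δpanc minus *Jarid2* WT (x axis), of the members (red), of all genes with a mean signal of at least 1000 (blue squares) and of all genes (black ticks) under each setting (y axis). The median of the members is negative in every setting shown and lies left of that of the bright genes, with quantile normalization nearest to 0 at -0.05.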

How the data were processed

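RNA of 3 *Jarid2* Δpanc and 3 *Jarid2* WT whole pancreases (e15.5, 50 ng, 2 cycles of cDNA synthesis) was hybridized to 6 arrays. The deposited values are linear intensities of 45101 probe sets, made with MAS5 per the labels (version not given), and each array has a trimmed mean of 150 (2% off each end). RMA, named in the methods of the study, needs scanner files and was not used here. A description label names islets in glucose, and the other labels, which give pancreas, were followed. Of the 45101 probe sets, 35890 are annotated, 34958 with 1 symbol and 932 with several, and the remaining 9211 were unnamed. *Cox7b* was not analysed here.

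Values were floored at 16, log2 was taken, and the groups were compared over 18194 genes with limma 3.58.1 in R 4.3.3 and Benjamini-Hochberg adjustment (threshold 0.05). The fit was tested on simulated data. Members, lists and tests were chosen with earlier results of these data known. Named were the extremes, separated members, those at an unadjusted p under 0.05, the 2 brightest of each complex, isoforms and X-linked members, and others to show contrasts, chosen after their values were seen. Alternatives covered left-out samples, the replicate number as a block, scaling, floor, dim genes, probe sets and variance. Labels number the embryos, and p-values measure the spread between these samples. The number of arrays limits the precision.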

Additional observations from a re-analysis of the deposited data

How the results depend on the processing

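The median of the members stayed negative in all 16 alternatives, and 0 members passed an adjusted p of 0.05 in limma in all but the last of those below. With quantile normalization, 13 members were lower and 2 higher in every *Jarid2* Δpanc sample, 10 and 2 had an unadjusted p under 0.05, and the medians were -0.050 for all members, -0.074, -0.091, 0.0076 and -0.031 for complexes I, III, IV and V. All 13 were among the 27. At an unadjusted p under 0.05, 12 were lower with median centring (median of all genes -0.02), 2 with a floor of 1 and 6 without genes of a mean log2 under 6. With the mean of all probe sets 2 were higher in every *Jarid2* Δpanc sample. Leaving out 1 sample gave 28 to 44 lower and 1 to 2 higher in every sample, and, by unadjusted p under 0.05, 12 to 25 lower and 0 to 2 higher. By unadjusted p it was 12 without *Jarid2* Δpanc replicate 3 and 14 without *Jarid2* WT replicate 2. With 1 sample left out, 8.58% to 10.5% of all genes and 22.7% to 33.5% of bright genes were lower in every *Jarid2* Δpanc sample. With all samples these shares were 5.66% and 19.2%. The share of all genes at an unadjusted p under 0.05 in limma is given for the main setting only (4.44% lower, 4.36% higher). The counts by unadjusted p in this section therefore have no share of all genes beside them and cannot be read against one.

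Whether equal replicate numbers mark paired embryos is not known. The samples of equal number had correlations of -0.05, -0.05 and -0.03, which cannot show whether they were littermates. With the replicate numbers as a block, 23 lower members and 1 higher member had an unadjusted p under 0.05 in limma. There 0 passed the adjusted p, so that no call by adjusted p changed. With *Jarid2* WT replicate 3, the control with high *Xist*, as the only control (chosen after seeing the data, its spread taken from the other group), 43 were lower and 4 higher than it in every *Jarid2* Δpanc sample, where 22.2% of all genes were lower, 8 and 0 at an unadjusted p under 0.05, and the median of complex III was -0.10. There, 1 member passed the adjusted p, *Cox8b* (log2 fold change -1.72, adjusted p = 0.0233 in limma), which was highest in that control. Its *Jarid2* Δpanc signals of 17, 17 and 9 lie at the floor of 16, which sets their spread, so that this p carries no information. Members named for contrast after their values were seen, *Ndufs7*, *Ndufs1*, *Ndufv1* and *Cox5a* among them, are not part of the next count. Of the 49 members named by the other rules, 34 kept their sign in all settings. The others include *Cox7b2*, which lay under the floor of 16 on every array and has no sign there. *Atp5g1* and *Ndufb2* had 0.31 and 0.32 by dim probe sets (mean signals 26.5 and 31.8) without _s, _x or _a names, and *Ndufv2* 0.10 by the mean of its probe sets. The cause of these differences was not tested.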

Other observations

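Some subunits are matched by probe sets that carry several symbols and were not counted among the members. The probe set of *Ndufs5* and its pseudogene had signals of 1197, 1068 and 1032 in *Jarid2* Δpanc samples and 1309, 1330 and 1294 in *Jarid2* WT samples. That of *Ndufa11* and *Ndufa11b* had 1263, 1172 and 1221 in *Jarid2* Δpanc samples and 1342, 1392 and 1335 in *Jarid2* WT samples. That of *Ndufs6* and *Ndufs6b* had 1726, 1847 and 1665 in *Jarid2* Δpanc samples and 2011, 1971 and 1925 in *Jarid2* WT samples. None of them had overlapping groups, and *Jarid2* Δpanc was the lower one each time. For *Ndufb4* and its copies, whose own probe set was dim at a mean of 21.0 in *Jarid2* Δpanc and 21.7 in *Jarid2* WT samples, the 2 shared probe sets had log2 fold changes of -0.21 and -0.19 with overlapping groups.

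The only transcript of the mitochondrial genome with a symbol of its own here, that of the complex I subunit ND5, had 4291, 4899 and 3914 in *Jarid2* Δpanc samples and 3991, 3307 and 3156 in *Jarid2* WT samples (log2 fold change 0.33), with overlapping groups.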
